A study of Mus musculus with 2 samples.

Results

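*Zscan10*, the gene known earlier as *Zfp206*, and its neighbour *Zfp13* lie head to head on mouse chromosome 17. A single tall pile of Zfp322a ChIP-seq reads sits inside *Zfp13*, near its 5′ end. These 2 genes, of 37310 in the annotation and 22380 that code for protein, were selected on the measured height of that pile, so its height, fold and strand pattern are described here and carry no test. All values are from mouse embryonic stem (mES) cells of the E14 line, given as C57BL/6 in background strain, unmodified and grown in serum with LIF. Chromatin was precipitated with an antibody against ZNF322, which the study used for the mouse zinc finger protein Zfp322a, or with rabbit IgG as control. Each antibody has 1 library, of 5187475 reads for Zfp322a and 4843481 for IgG, a ratio of 1.07, and there is no replicate at any value below. RNA of marker genes was not measured in these libraries, so the cell type rests on the labels.

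Zscan10 is a transcription factor with a SCAN domain and C2H2 zinc fingers, and it belongs to the regulatory network around Oct4 and Sox2 that keeps ES cells pluripotent. Zfp13, also named Krox-8, is a C2H2 zinc finger protein as well. In ChIP-seq, fragments bound by the precipitated protein are sequenced from their ends, so forward reads gather on one flank of a bound site and reverse reads on the other. The question here is where the pile lies and to which of the 2 promoters it belongs.

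In mm9 with GENCODE vM1, *Zfp13* (ENSMUSG00000062012.6) runs on the minus strand over chr17:23712811-23736454 and *Zscan10* (ENSMUSG00000023902.11) on the plus strand over chr17:23737823-23747986. Their 5′ ends are 1369 bp apart and face away from each other. The annotation has 2 transcription start sites (TSSs) for *Zfp13* and 9 for *Zscan10*. From 10 kb beyond one gene to 10 kb beyond the other, 55.2 kb in all, it holds no other gene.

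The following sequences show the bases under the tip of the pile and the promoters on either side. The stretch of *Zfp13* intron 1 is the plus strand of chr17:23735969-23736118 and ends where exon 1 begins, and its capitals mark the bases of greatest Zfp322a height. The promoters are the 250 bases before the RefSeq start sites, each read on the strand of its gene, chr17:23736455-23736704 for *Zfp13* and chr17:23737543-23737792 for *Zscan10*. The capitals there mark CCGGAAG, the core bound by ETS factors, on either strand. Both promoter entries of RefSeq, made on GRCm38.p6, matched mm9 at 1 place in the locus. The RefSeq start of *Zfp13* is that of GENCODE, and the RefSeq start of *Zscan10* lies at -30 bp from it. The last sequence is a small stretch in *Zscan10* intron 1, chr17:23738257-23738294, plus strand, with no capitals.
Zfp13 intron 1: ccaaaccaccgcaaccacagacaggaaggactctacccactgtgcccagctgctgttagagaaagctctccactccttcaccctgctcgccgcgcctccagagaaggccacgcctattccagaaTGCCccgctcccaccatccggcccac
Zfp13 promoter: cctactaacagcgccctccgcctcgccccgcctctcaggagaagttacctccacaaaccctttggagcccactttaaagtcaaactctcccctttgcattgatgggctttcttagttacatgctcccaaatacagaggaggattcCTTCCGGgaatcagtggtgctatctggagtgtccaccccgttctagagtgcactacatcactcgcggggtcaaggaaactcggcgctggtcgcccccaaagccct
Zscan10 promoter: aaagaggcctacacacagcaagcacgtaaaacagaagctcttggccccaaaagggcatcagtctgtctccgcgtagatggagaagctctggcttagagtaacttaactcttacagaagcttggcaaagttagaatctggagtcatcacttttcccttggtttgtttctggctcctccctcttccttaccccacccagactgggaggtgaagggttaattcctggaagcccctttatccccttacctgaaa
Zscan10 intron 1: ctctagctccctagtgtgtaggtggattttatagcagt

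Across the locus the Zfp322a library had 343 reads and the IgG library 226, counted by their 5′ ends. Of the 552 bins of 100 bp, 358 held no Zfp322a read and 381 held no IgG read. The fullest bin, chr17:23736011-23736110, held 36 Zfp322a reads and 0 IgG reads. Its neighbours toward the *Zfp13* TSS held 22 and 11 Zfp322a reads, with 1 IgG read in each. Outside the pile, no bin of the locus held more than 6 Zfp322a reads, and the fullest IgG bin of the whole locus held 3. The antibody reads thus peaked in 1 place, and no IgG bin stood out in the same way.

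**Figure D1:**
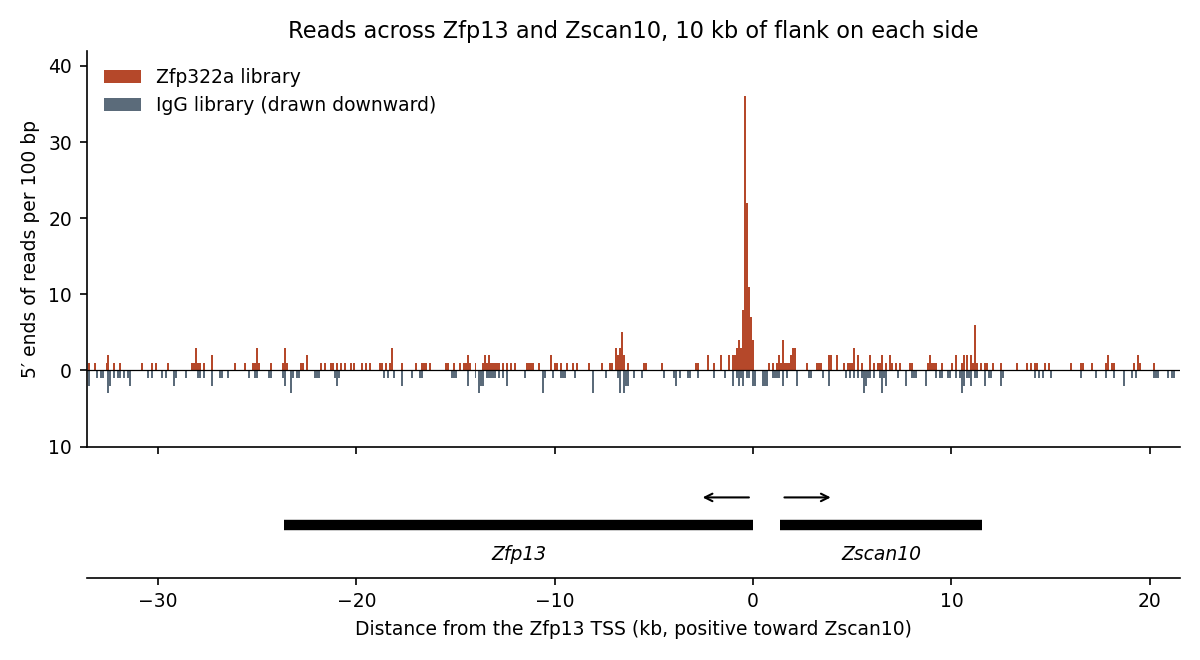
Reads per 100-bp bin (5′ ends) against distance from the Zfp13 TSS in kb, with Zfp322a upward and IgG drawn downward; black bars are the genes and arrows their direction. The bin of 36 Zfp322a reads stands just inside Zfp13, and no bin outside the pile exceeds 6.

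Height is the number of reads, each extended to 300 bp, that cover a base. Stretches of height 9 or more, joined where at most 300 bp apart, were called sites when the Zfp322a height reached 3 times the IgG height, an IgG height of 0 being taken as 1. Genome-wide, 5059 of 9996 stretches (50.6%) reached that fold, and so did the 4 stretches of this locus. Heights were not scaled to library totals, and with IgG heights scaled to the Zfp322a total the locus held 3 sites. The tall stretch spans 911 bp, chr17:23735497-23736407. Its Zfp322a height was 71 reads (exact Poisson 95% interval 55.5 to 89.6) and its IgG height 6 (2.2 to 13.1), a fold of 11.8. Poisson and binomial intervals here cover counting error only. In 2000 bp around the summit there were 104 Zfp322a and 18 IgG reads, which is 5.39-fold per library total (exact conditional binomial 95% interval 3.25 to 9.46). Within the 911 bp themselves the counts were 97 and 10, or 9.06-fold (4.72 to 19.5), and in 500 bp around the summit 80 and 5, or 14.9-fold (6.14 to 47.3). The narrower the window around the summit, the higher the fold.

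The 97 Zfp322a reads all mapped with a quality of 25 or more, 95 of them at 37, the highest value used, and each began at its own position and strand. In both libraries no position and strand occurs more than once anywhere in the genome, so heights count distinct positions. The 10 IgG reads in the stretch also had qualities of at least 25. Over the whole locus, reads that map equally well elsewhere (quality 0) numbered 17 for Zfp322a and 14 for IgG, and none of them lay in the tall stretch.

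The other 3 stretches were low. One, in the long first intron of *Zfp13* at chr17:23729747-23729833, reached 11 reads (5.49 to 19.7) against 3 of IgG. In the bin chr17:23729911-23730010, just after it, the greatest height was 8 in both libraries. Another, in *Zscan10* intron 1, is the 38-bp stretch printed above, with its summit 452 bp after the *Zscan10* TSS, and it reached 9 reads (4.12 to 17.1) against 1 of IgG. The last, in a coding exon near the 3′ end of *Zscan10* at chr17:23747687-23747699, reached 9 reads against 3. In 2000 bp around their summits the fold per read was 1.36 (0.639 to 3.01), 1.96 (0.884 to 4.66) and 1.11 (0.54 to 2.31), and each interval includes 1. The value depends on the window: over the first 1000 bp of *Zscan10*, which hold the stretch in its intron 1 and were chosen after the values were seen, there were 16 Zfp322a and 5 IgG reads, or 2.99-fold (1.05 to 10.4). The interval of the tall stretch lies above those of the first and the last and overlaps that of *Zscan10* intron 1.

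The summit, the middle of the bases of greatest height (chr17:23736093-23736096), lies at 23736094. It is inside *Zfp13*, 360 bp downstream of its TSS, in intron 1 and 25 bp from exon 1, whose 336 bp are all 5′ UTR. The whole stretch is inside the *Zfp13* gene, with 289 bp in exon 1 and 622 bp in intron 1. It ends 47 bp short of the *Zfp13* TSS and 1416 bp short of that of *Zscan10*. From the *Zscan10* TSS the summit is 1729 bp upstream. The pile was 382 bp wide where its height had dropped to 50% of the summit.

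At the start sites themselves the heights were low in both libraries. At the *Zfp13* TSS the Zfp322a height was 7 reads (2.81 to 14.4) and the IgG height 2 (0.242 to 7.22), and the Zfp322a value is 9.86% of that at the summit. At the *Zscan10* TSS it was 6 reads (2.2 to 13.1) against 4 of IgG (1.09 to 10.2), or 8.45% of the summit. The intervals overlap between libraries at each gene and between the genes. Overlap is not a test, and a difference from IgG or between the starts was not tested. Among all 22380 protein-coding genes, the median heights at the 5′ end were 2 for Zfp322a and 1 for IgG. A Zfp322a height of at least 7 was found at 16.0% of them, and one of at least 6 at 21.2%. An IgG height of at least 4, as at *Zscan10*, was found at 18.3%.

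The second TSS of *Zfp13*, at 23723166, had 3 reads in each library. The *Zscan10* starts at 23737829 and 23737908 had Zfp322a heights of 5 and 6, with 4 and 3 of IgG. Its starts between 23742448 and 23742539 had 2 or 3 reads in both libraries, and the start at 23744457 had 1 Zfp322a read and 2 of IgG. No start of *Zscan10* reached the height of 9 that a site needs.

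Between the TSSs the Zfp322a height fell to 0 and rose again to 6 at the *Zscan10* TSS. It reached 0 at 353 bp from the *Zfp13* TSS and was 0 at 207 bases of the gap, where the IgG height was between 0 and 3. The IgG height was itself 0 at 69 bases of the gap. The gap held 7 Zfp322a and 13 IgG reads, a ratio per library total of 0.503 (0.17 to 1.36). The pile is thus not joined to the *Zscan10* start by a run of reads.

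**Figure D2:**
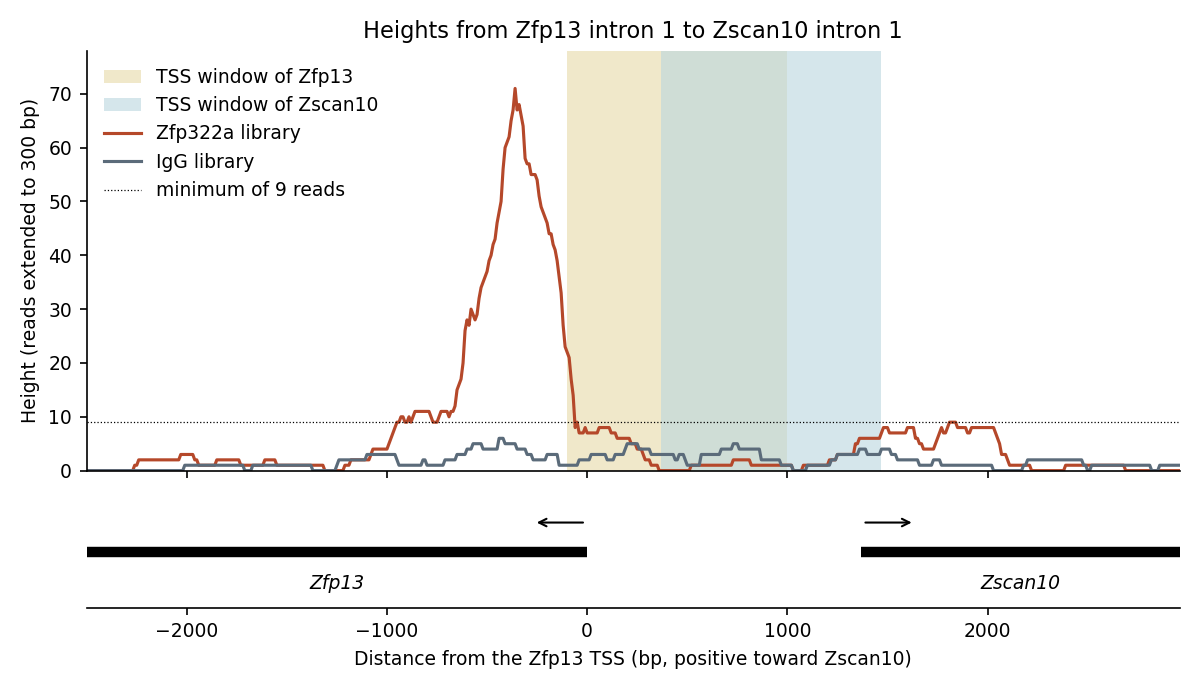
Height (reads extended to 300 bp covering a base) against distance from the Zfp13 TSS in bp, for the Zfp322a and IgG libraries, with the TSS windows (-1000 to 100 bp) of the genes shaded. The pile of 71 reads stands left of both windows, inside Zfp13, and only its right edge enters that of Zfp13.

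Along the rest of the genes the libraries were close to each other. *Zfp13* before the site held 104 Zfp322a and 82 IgG reads over 22686 bp, a ratio of 1.18 (0.878 to 1.6), and *Zscan10* held 77 and 56 over 10164 bp, a ratio of 1.28 (0.898 to 1.85). The flank beyond the 3′ end of *Zfp13* had a ratio of 0.742 (0.448 to 1.22) and that beyond *Zscan10* 0.934 (0.515 to 1.69). All of the locus outside the tall stretch gave 246 and 216 reads, a ratio of 1.06 (0.882 to 1.28). Per kb, IgG had 11 reads in the tall stretch and 9.5 between the TSSs, against 3.98 over the locus outside the stretch, so the control was also denser around the 5′ ends, and its part in the heights there was not tested. The Zfp322a densities of the same segments were 106, 5.12 and 4.53 reads per kb. The intervals of both gene bodies, both flanks, the gap and the locus outside the stretch include 1, while that of the first 1000 bp of *Zscan10*, given above, does not. By comparison, the tall stretch held 28.3% of all Zfp322a reads of the locus and 4.42% of the IgG reads.

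**Figure D3:**
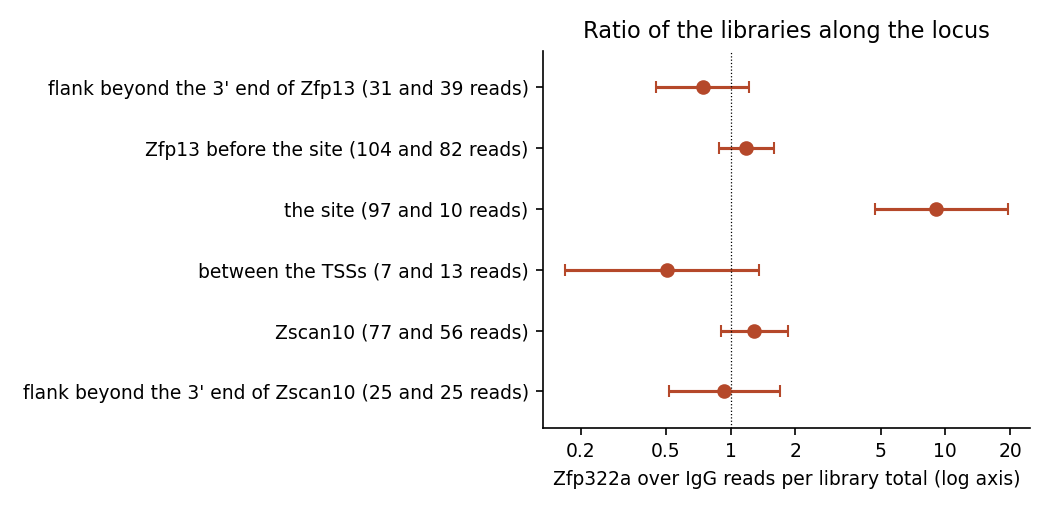
Ratio of Zfp322a to IgG reads per library total (log axis) for 6 segments of the locus, with exact conditional binomial 95% intervals that cover counting error only and the Zfp322a and IgG read numbers in brackets. The site in Zfp13 stands at 9.06 and the other segments have intervals that include 1.

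The reads of the pile were arranged by strand around the summit. Within 300 bp of it there were 42 forward and 43 reverse Zfp322a reads. In the 150 bp before the summit 34 reads were forward and 5 reverse, and in the 150 bp from the summit on 4 were forward and 28 reverse. The median forward read began at -47.5 bp from the summit and the median reverse read at 49 bp, a separation of 96.5 bp (52 to 176 bp, from the order-statistic 95% intervals of the medians). In 83.7% of forward and reverse pairs the forward read lay upstream. The middle between the medians lies 0.75 bp from the summit, both measures being taken from the same reads. IgG had 3 forward and 3 reverse reads in this window, too few for a position. In 88.9% of the IgG pairs the forward read lay upstream as well. The separation is below the 300 bp to which reads were extended, and the library protocol gives fragments of about 250 bp with adaptors.

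**Figure D4:**
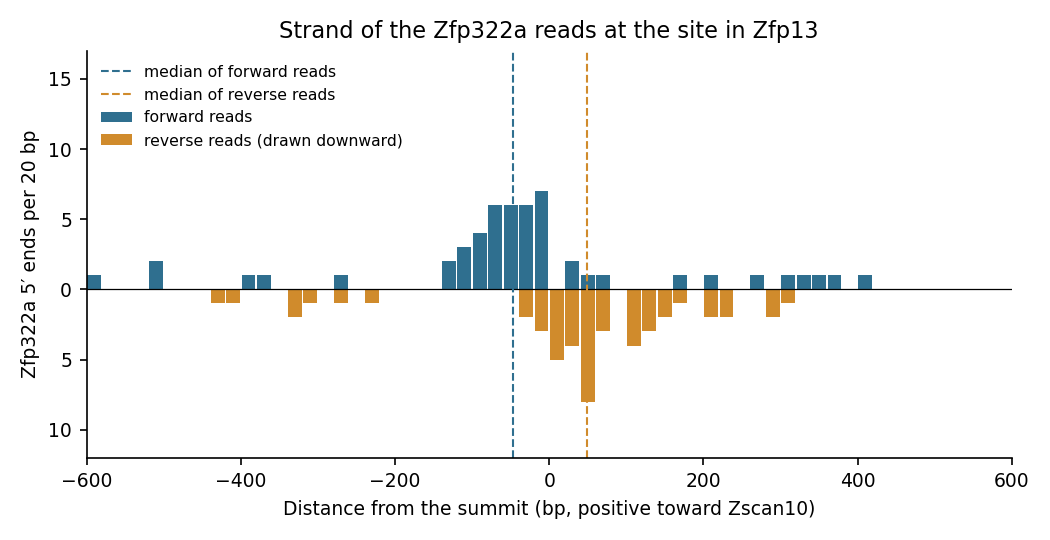
Zfp322a 5′ ends per 20 bp around the summit, forward reads upward and reverse reads drawn downward, with dashed lines at the medians. Forward reads gather before the summit and reverse reads after it, with medians 96.5 bp apart.

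Which gene the site is given to depends on the rule used. The study counts *Zfp206*, here *Zscan10*, among genes tied to its strongly enriched binding sites, and proposes that Zfp322a could regulate them directly. Its text does not state which peak that refers to, and it does not name *Zfp13*. For these genes it cites a supplementary list of its highest peaks, whose entries are not reported here. By nearest TSS the site goes to *Zfp13*, at 360 bp, whether all transcripts, only protein-coding ones or only gene records were considered. Within the study's TSS window, from -1000 to 100 bp, the stretch overlaps that of *Zfp13* by 54 bp and stays 416 bp away from that of *Zscan10*. Its summit is in neither, being 260 bp from the edge of the *Zfp13* window and 729 bp from that of *Zscan10*. Among all protein-coding genes, 2413 of 22380 (10.8%) had a site in the window, and of the pair *Zfp13* did and *Zscan10* did not. That call on *Zfp13* rests on the edge of the pile: with reads extended to 150 or 200 bp the overlap was 0 bp, and with 250 bp it was 28 bp. With a window from -1000 to 1000 bp both genes had a site, *Zscan10* through its own 38-bp stretch of 9 reads and not through the tall one. Taken as a site upstream of *Zscan10*, the pile falls in the class of promoters between 1000 bp and 3 kb from a TSS.

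The deposited list of regions carries the site under 2 numbers, 29 and 30, with the same 100 Zfp322a reads and the same 12 IgG reads under each. These reads span chr17:23735578-23736542, so this region, unlike the stretch above, passes over the *Zfp13* TSS by 88 bp and ends 1281 bp before that of *Zscan10*. Of the 925 region numbers in the list, 319 share all of their reads with another number, and the list names no gene.

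The layout of the pair was set beside that of the other head-to-head pairs. The annotation has 929 pairs of protein-coding genes whose 5′ ends face away from each other at 2000 bp or less, with a median gap of 167 bp. A site lay between the starts or within 1000 bp inside either gene in 239 of them (25.7%). The pair of *Zfp13* and *Zscan10* had the highest site of all, 71 reads against a median of 11, which is a description because the pair was chosen for it. In 197 of the 239 pairs (82.4%) the summit lay inside one of the genes and in 42 between the starts. At 48 (20.1%) it lay at least as far inside as the 360 bp seen here, this pair included. Of 30 pairs with a site and a gap of 1000 bp or more, the summit was inside a gene in 26. Sites were sought up to 1000 bp inside each gene, against a median gap of 167 bp, so most bases searched at a typical pair lay inside genes. How far this window sets the share of summits inside a gene was not tested, nor was a preference for that place.

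Among single sites, the pile ranked 6 by height out of 5059, a rank that moves with the filter, to 43 with no limit on the fold and to 3 among sites of at least 9-fold. Of the 60 sites with at least 30 reads, 45 had under 10% of reads with mapping quality 0, and there it ranked 4, after the sites at *Pgk1*, *Ino80d* and *Pcbp2*, of which the first 2 are named after their values were seen. *Pgk1*, on the X chromosome, had 421 reads against 112 of IgG, and *Ino80d* 104 against 3. Of these 45, 35 had a summit within 1000 bp of a protein-coding TSS, 25 of them downstream of it, with a median position of 175 bp downstream. At 7 sites, this one included, the summit was at least 360 bp downstream. The median width at 50% of the height was 396 bp (range 303 to 779), against 382 bp here, and the median strand separation 124 bp (36 to 293), against 96.5 bp here. The share of pairs with the forward read upstream had a median of 78.6% (56.0 to 96.9%), against 83.7% here. In width, separation and strand order the site lay within the range of the other high sites.

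**Figure D5:**
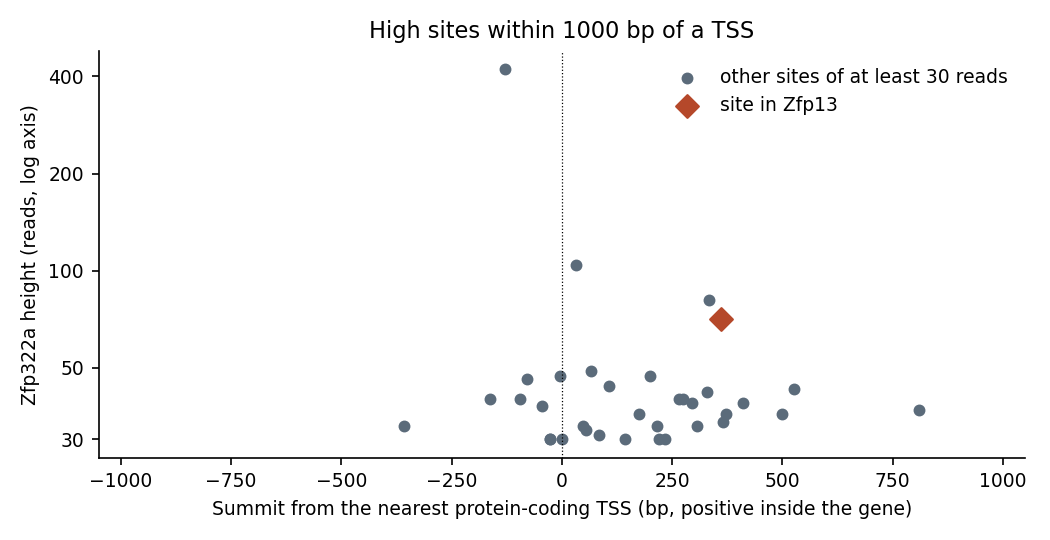
Zfp322a height (log axis) against the position of the summit from the nearest protein-coding TSS in bp, for the 35 sites of at least 30 reads with mostly unique reads and a summit within 1000 bp. The site in Zfp13 (diamond) is at 360 bp and 71 reads, and most summits lie downstream of their TSS.

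The 5 sites nearest to it in the log2 heights of both libraries, over these 2 libraries only and among sites with mostly unique reads, lie by *Psmd3*, *Dis3l*, *Pcbp2*, *Vcp* and *D630036H23Rik*. *Psmd3*, which encodes a subunit of the proteasome cap, had heights of 49 and 6, at a distance of 0.54 on the log2 scale. *Dis3l*, an exosome-associated nuclease, had 47 and 6, and *Pcbp2*, a poly(C)-binding protein, 81 and 4. *Vcp*, an AAA ATPase, had 43 and 7, and *D630036H23Rik* had 42 and 6. Their summits lay at 67, -4, 334, 525 and 328 bp from the TSS. Only that of *Vcp*, at 525 bp, was at least as far inside the gene as the 360 bp of the pile in *Zfp13*.

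Of 16 protein-coding *Zscan* genes, *Zscan10* included, 2 (12.5%) had a site in the TSS window, close to the 10.8% of all protein-coding genes, and their median Zfp322a height in the window was 4. They were *Zscan22*, with heights of 11 and 3, and *Zscan29*, with 12 and 3. *Zscan10* itself reached 8 against 5 of IgG in its window. Of 3 *Zfp* genes within 500 kb on chromosome 17, the selected *Zfp13* included, only *Zfp13* had a site in the window, where the edge of the pile reached 22 against 5, while *Zfp213* reached 9 against 7 and *Zfp40* 4 against 2. The study also names *Zfp42* (Rex1), *Zfp296* and the *Zscan4* family, and 0 of these 8 genes had a site. *Zfp296* had 7 against 4, *Zfp42* 5 against 5, and the *Zscan4* genes 2 or fewer Zfp322a reads. The *Zscan4* genes are near-identical copies, where reads may be split or lost.

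In sequence, the 300 bp around the summit were 59.3% G and C with 11 CpGs, beside medians of 61.3% and 17 over all sites and of 58.0% and 14 over the starts of protein-coding genes. The window at the *Zfp13* TSS had 53.7% and 9 CpGs, that at the *Zscan10* TSS 54.3% and 5, and that in the middle of the gap 45.0% and 2. CpGs were thus fewer at the *Zscan10* start than at the summit. Motif 1 of the study, 10 bases long, had 0 exact matches on either strand around the summit or in the whole stretch, while 28.7% of all sites and 21.6% of gene starts had one in 300 bp. With 1 mismatch allowed it had 6 matches, and 84.9% of sites and 83.3% of gene starts then had one. Motif 3, 11 bases long, had no match within 2 mismatches, and 9.43% of sites and 1.6% of gene starts had an exact one. The study gives lower frequencies for both motifs in its own binding sites. The letters used here were read from its logos, so these shares are not at the study's stringency. GGGCGG, the core bound by Sp and Klf factors, occurred on either strand 2 times in the 300 bp and 3 times in the stretch, the nearest starting at -132 and 134 bp from the summit, in a word that 43.7% of sites and 45.7% of gene starts hold. CCGGAAG had 0 matches in the stretch, and the copy printed in capitals in the *Zfp13* promoter ends at -99 bp from its TSS. It is held by 16.0% of sites and 11.3% of gene starts. A missing match says only that these letters are not in this window.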

How the data were processed

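The values are ChIP-seq reads from E14 mES cells, 1 Zfp322a and 1 IgG library. The authors mapped 36-bp reads to mm9 and called regions in Partek with 300-bp fragments, and the submitters' processing notes name CASAVA 1.4, BWA and Partek 6.6. The deposited mapping files give 1 read a line with its mapping quality as a score, and the deposited region lists give numbered reads with no other measurement.

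Reads were extended to 300 bp, and stretches of height 9 or more at most 300 bp apart were joined and called sites at 3-fold over IgG. Height and fold follow the study's methods, while its results text gives a threshold of 9-fold or higher enrichment. The joining is not the study's, and its Mann-Whitney filter on strand separation was not applied. Reads were counted by 5′ end, and folds per read used library totals. TSSs came from GENCODE vM1. Site finding was tried on simulated reads with an even background, which covers neither the low sites nor the uneven control density seen here. Python 3.11.15, numpy 2.4.6, scipy 1.17.1 and pysam 0.24.0 were used. Motifs 1 and 3 were read from the study's logos.

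The genes and lists were chosen with earlier results of these data known. Named genes are the pair, list genes with a site and genes of the 5 sites nearest in height, and list genes without a site are given as values only. With 1 library per antibody, no test between conditions was made.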

Additional observations from a re-analysis of the deposited data

How the results depend on the processing

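Of 71 alternative values over 18 results, 60 stayed within the counting interval or within 1.5 times, and 11 moved. Over the fragment lengths and mapping quality run, the heights, the fold of heights and the summit (360 to 362 bp from the *Zfp13* TSS) stayed so, except that the IgG height at the *Zscan10* TSS was 1 with 150-bp reads. The nearest gene was tried with other TSS sets, and the strand separation with other distances and mapping quality, and both stayed so. The fold per read was 14.9 in 500 bp. The rank of the site was 43 with no limit on the fold and 3 at 9-fold. The locus held 2 sites at a height of 11, at 9-fold or with 200-bp reads. Genes with a site in the TSS window numbered 1572 at a height of 11 and 425 at 9-fold, and pairs with a site 44 at 9-fold. Reads extended to 200 bp, an alternative chosen after seeing the data, gave 1879 genes, *Zfp13* not among them. Motif 1 had 6 matches with 1 mismatch. No paired analysis was possible because each antibody has 1 library and the result comes from no test. Depth limits every value under about 10 reads, where intervals of the libraries overlap.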
